A study of Mus musculus with 6 samples.

Results

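The genes described here are 9 genes of iron handling and of the defense against ferroptosis, Ftl1, Fth1, Tfrc, Slc40a1, Hmox1, Gpx4, Ncoa4, Ireb2 and Aco1, chosen by name from the 25215 genes of the expression table. All 9 were found in the table and all 9 were among the 11264 genes that were tested. Expression was measured in single cells from the tumors of 6 C57BL/6 mice. Melanoma cells (50000, whether per flank or per mouse is not given in the sources used here) were placed under the skin of both flanks, and tumors were taken on day 15. The cells of a mouse are called 1 tumor here, although they may come from both flanks. B16 tumors grew from B16-F10 cells, a mouse melanoma line, without treatment. B16PD1 tumors grew from the same line in mice given 200 µg of anti-PD1, an antibody against a T cell checkpoint receptor, on days 5, 8 and 11. R499 tumors grew without treatment from Res499, a line derived from a B16 tumor that had relapsed after radiation and anti-CTLA4, so each R499 value comes from 1 derived line. Each condition had 2 tumors, named below as in the table: B16_007 and B16_008, B16PD1_000 and B16PD1_002, and R499_015 and R499_016. CD45-negative cells, which leaves out most immune cells, were sorted and sequenced with a full-length Smart-seq protocol.

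Iron enters most cells bound to transferrin, through the transferrin receptor encoded by Tfrc. Iron that is not used at once is stored inside a shell of ferritin light and heavy chains (Ftl1 and Fth1), is released when Ncoa4 carries ferritin to the lysosome, and leaves the cell through ferroportin (Slc40a1). The iron regulatory proteins encoded by Aco1 and Ireb2 sense iron and bind a hairpin, the iron-responsive element, in target mRNAs. In the 5′ UTR of an mRNA this binding blocks translation, and in the 3′ UTR of Tfrc it protects the mRNA from decay, so for the ferritins and ferroportin the mRNA level measured here is only one layer of control. Hmox1 frees iron from heme, and Gpx4 reduces lipid peroxides, whose iron-dependent accumulation kills cells by ferroptosis.

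The annotated UTRs of the 9 genes were searched for this hairpin, which is the feature that ties several of them to the iron regulatory proteins. The search asked for a C, 5 bases, a loop of 6 bases that starts CAGTG, and 5 bases that pair with the first 5, on the transcript strand. Ftl1, Fth1 and Slc40a1 each held 1 match in the 5′ UTR, and Tfrc held 4 matches in the 3′ UTR, all in its exon 19. The Ftl1 match (chr7:45459779-45459807, minus strand) and the Slc40a1 match (chr1:45925465-45925493, minus strand) lay in exon 1. The Fth1 match (chr19:9982732-9982760, plus strand) lay in exon 1 or exon 2, depending on the annotated transcript. The Tfrc matches lay at chr16:32631219-32631247, chr16:32631598-32631626, chr16:32631663-32631691 and chr16:32631710-32631738, on the plus strand. Ftl1, Fth1, Slc40a1 and Tfrc each also had an annotated transcript whose UTR of the same kind held no match. All positions are those of GRCm38. The 6-base loop is in capitals in each sequence, written 5′ to 3′ on the transcript strand.
Ftl1 5′ UTR: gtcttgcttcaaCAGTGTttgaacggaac
Fth1 5′ UTR: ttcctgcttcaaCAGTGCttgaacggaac
Slc40a1 5′ UTR: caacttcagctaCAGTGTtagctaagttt
Tfrc 3′ UTR, site 1: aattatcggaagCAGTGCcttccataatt
Tfrc 3′ UTR, site 2: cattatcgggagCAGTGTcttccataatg
Tfrc 3′ UTR, site 3: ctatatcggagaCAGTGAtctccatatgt
Tfrc 3′ UTR, site 4: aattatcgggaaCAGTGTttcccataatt
A match to these letters was present in a 5′ UTR of 31 of 20916 genes (0.148%) and in a 3′ UTR of 129 of 21045 genes (0.613%). Tfrc was the 1 gene with 3 or more matches in a 3′ UTR. In Hmox1, Gpx4, Ncoa4, Ireb2 and Aco1 these letters were not found in the annotated UTRs.

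Of 602 cells, 507 were retained, between 75 and 91 in a tumor, and the median number of genes detected in a retained cell was 3547. By tumor this median lay between 3141 (R499_015) and 3838.5 (B16PD1_002). All 507 cells had TPM above 0 in at least 4 of 7 melanocyte markers. Of 17 macrophage markers, 14 were detected in any retained cell and Cd163, Marco and Spic were listed at 0. The most frequent, Fcer1g, was present in 5.52% of cells, and only 3 cells had 3 or more of these markers. The summed mean TPM of the 17 markers was 304.7 in B16_007 and 230.3 in B16PD1_002, against 7.37 to 19.0 in the other 4 tumors. None of 6 red cell markers was detected, and of 10 fibroblast and endothelial markers 6 were, the most frequent being Vwf in 2.56% of cells. No cell column was repeated and no well position was shared between tumors.

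The 9 genes ranged from rank 3 to rank 8244 of the 11264 tested genes by mean level. Levels are given in TPM, a transcript abundance scaled for transcript length and to the same total in each cell, as the mean over the 6 tumors. Ftl1 (chr7:45457944-45459884) had a mean of 12123 TPM and ranked 3 of 11264 genes, and Fth1 (chr19:9980598-9985098) had a mean of 4601 TPM and ranked 21. Both were detected, that is had TPM above 0, in all 507 cells, with a Wilson 95% interval for each share of 99.2% to 100%. Gpx4 (chr10:80047166-80056439) followed at 553 TPM in 88.0% of cells. Tfrc (chr16:32608920-32632794) at 166 TPM and Hmox1 (chr8:75093621-75100589) at 139 TPM were close in mean level, but Tfrc was detected in 95.5% of cells and Hmox1 in 73.0%. Ncoa4 (chr14:32159865-32179855) had 61.7 TPM in 62.3% of cells. The 2 iron regulatory proteins were low, with 15.9 TPM for Ireb2 (chr9:54863789-54912530) in 47.1% of cells and 13.9 TPM for Aco1 (chr4:40143081-40198338) in 37.3%. Slc40a1 (chr1:45908068-45926523) was the lowest, at 3.25 TPM in 40 of 507 cells (7.89%, Wilson 95% interval 5.85 to 10.6). The tumor ranges of mean TPM overlapped for Tfrc (151 to 195) and Hmox1 (83.5 to 184), and for Ireb2 (7.25 to 22.5) and Aco1 (8.63 to 23.4), so the order within these pairs did not exceed the spread between tumors.

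**Figure D1:**
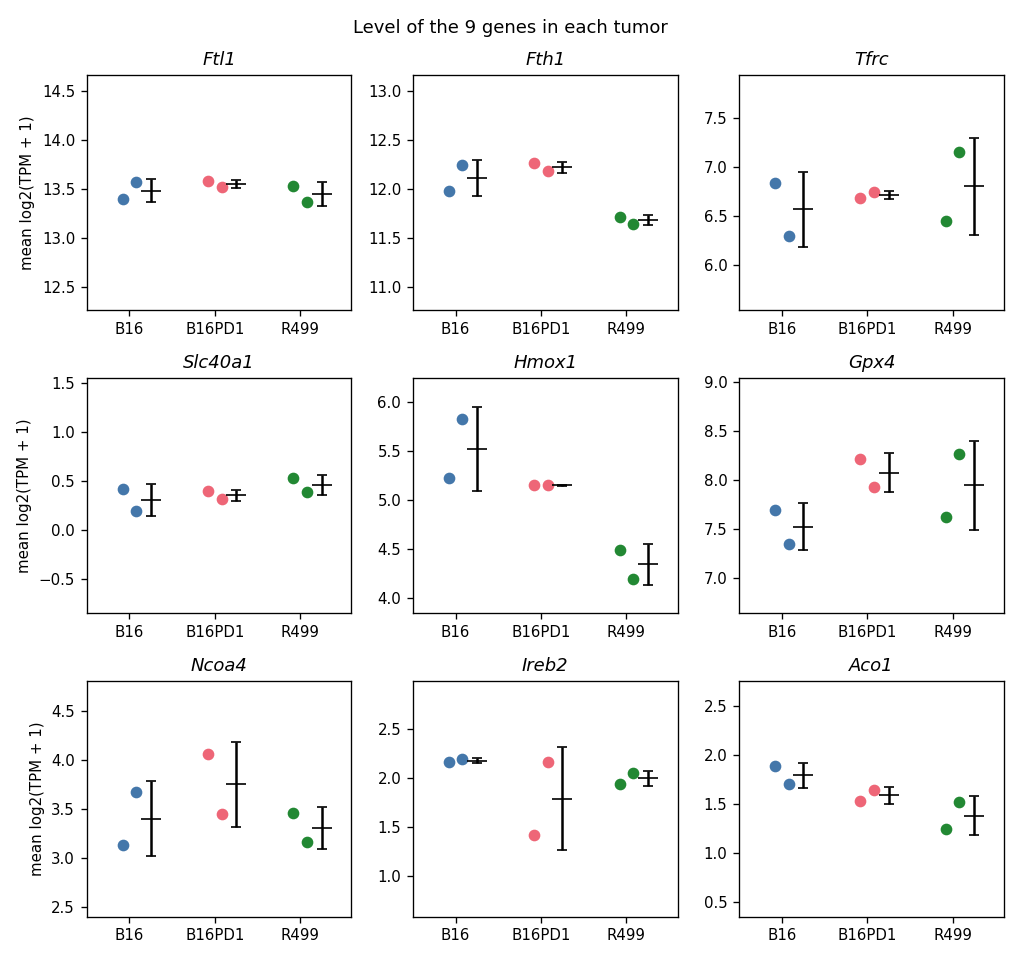
Mean log2(TPM + 1) over the retained cells of each tumor (colored points, 2 tumors per condition) for the 9 genes, with the mean ± SD of each condition in black; the y axes have different ranges. The R499 points of Fth1 and Hmox1 lie below all 4 others, at 11.64 and 11.72 for Fth1 and at 4.20 and 4.49 for Hmox1.

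The conditions allow iron storage, uptake and ferroptosis defense genes to be compared between untreated B16, B16 after anti-PD1, and the treatment-resistant R499 line. The value of a tumor was the mean of log2(TPM + 1) over its retained cells, so that the tumor was the replicate. Differences below are on this log2 scale, and p-values are from limma with Benjamini-Hochberg adjustment over 11264 genes. None of the 9 genes passed an adjusted p of 0.05 in any of the 3 comparisons. Between R499 and B16, 2 of 9 had an unadjusted p under 0.05, Hmox1 and Fth1, both lower in R499. Over all genes of this comparison 0.0621% passed the adjusted threshold and 10.5% had an unadjusted p under 0.05. Between R499 and B16PD1 the same 2 genes had an unadjusted p under 0.05, again lower in R499, where 0.071% of all genes passed the adjusted threshold and 10.2% the unadjusted one. Between B16PD1 and B16 none did, where 0% of all genes passed the adjusted threshold and 4.69% the unadjusted one. The tumors did not overlap for 4 of 9 genes between B16PD1 and B16 (33.3% of all genes), for 4 of 9 between R499 and B16 (41.7%) and for 3 of 9 between R499 and B16PD1 (41.5%). The comparisons share tumors: the R499 tumors enter both comparisons with R499, the B16 tumors both with B16, and the B16PD1 tumors both with B16PD1.

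**Figure D2:**
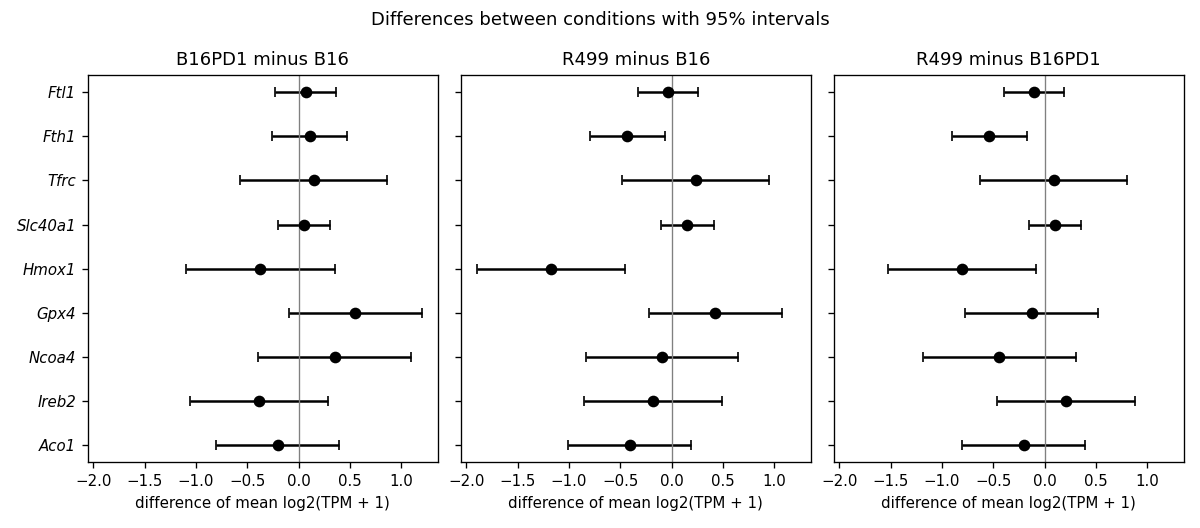
Difference of mean log2(TPM + 1) between conditions for the 9 genes (points) with the 95% interval from limma (bars), 2 tumors per condition, in the 3 comparisons. The intervals of Fth1 and Hmox1 lie below 0 in both comparisons with R499, and no gene passed the adjusted threshold.

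The storage genes are described first. Ferritin light chain, Ftl1, was at 13.40 and 13.57 in B16, at 13.58 and 13.52 in B16PD1 and at 13.53 and 13.36 in R499 (mean log2(TPM + 1)). The 6 tumors lay close together and the conditions overlapped. R499 differed from B16 by -0.037 (SE 0.14, adjusted p = 0.95 by limma), with a 95% interval of -0.33 to 0.26.

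Ferritin heavy chain, Fth1, carries the site that oxidizes iron for storage. Its level stood at 11.98 and 12.25 in B16, at 12.26 and 12.18 in B16PD1 and at 11.72 and 11.64 in R499. Both R499 tumors lay below the 4 others, and the B16 and B16PD1 tumors overlapped. R499 was lower than B16 by 0.44 (difference -0.44, SE 0.17, 95% interval -0.80 to -0.070, adjusted p = 0.39 by limma), a fold of 0.74. Against B16PD1 the difference was -0.54 (SE 0.17, adjusted p = 0.32 by limma), a fold of 0.69. In TPM, the mean ± SD over 2 tumors was 4883 ± 500.4 for B16, 5359 ± 0.12 for B16PD1 and 3561 ± 167 for R499. The Fth1 difference between R499 and B16 lay between -0.64 and -0.30 over all alternatives tried.

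The ratio of the 2 chains in a cell was highest in the tumors with the least Fth1. Fth1 is the denominator of this ratio and Ftl1 overlapped between conditions, so the ratio restates the Fth1 values above. Ftl1 exceeded Fth1 in TPM in 497 of 507 cells, and the median ratio was 2.85, with a 10th to 90th percentile of 1.49 to 4.90. By tumor the median ratio was 2.67 and 2.64 for B16, 2.58 and 2.42 for B16PD1, and 3.48 and 3.38 for R499. The R499 tumors thus stood above the other 4, by less than the range between cells of 1 tumor. An exact permutation test of 2 tumors against 2 cannot go below p = 0.33, and none was run. Both chains together took 1.68% of all TPM in a cell on average, from 0.627% to 4.18%.

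**Figure D3:**
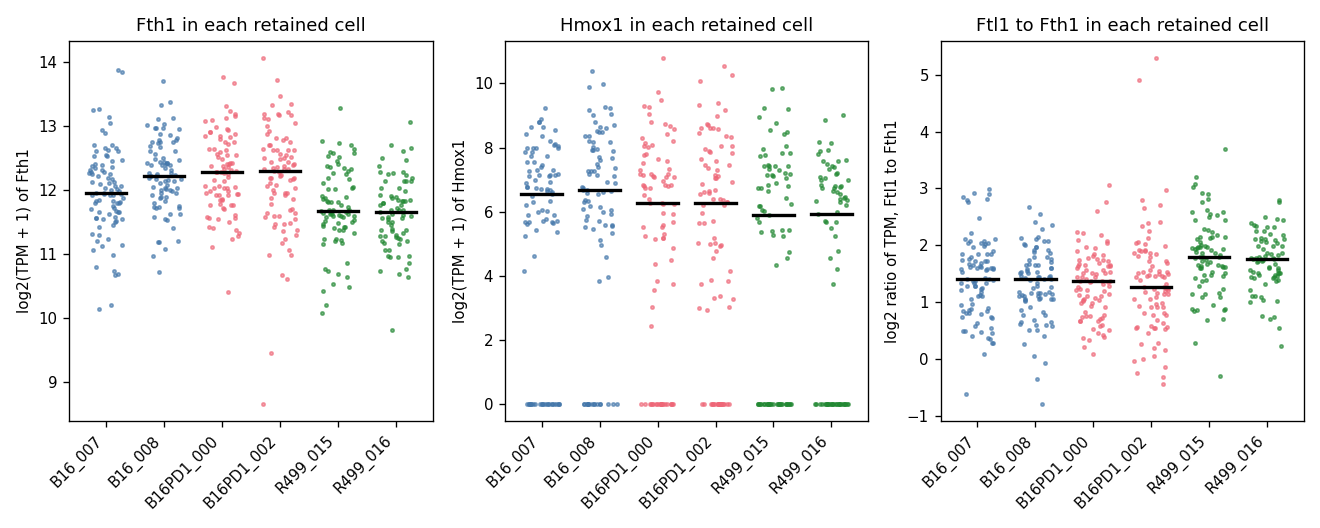
log2(TPM + 1) of Fth1 and of Hmox1, and the log2 ratio of Ftl1 to Fth1 TPM, in each of the 507 retained cells (points, colored by condition) with the median of each tumor (black lines). The R499 medians are the lowest for Fth1 and Hmox1 and the highest for the ratio, while the cells of all tumors overlap; cells without Hmox1 lie at 0.

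Copies of 2 of the genes limit their values. Ftl1-ps1, a processed copy of Ftl1, had 537 TPM in 93.3% of cells, and Gpx4-ps2, a copy of Gpx4, had 176 TPM in 59.6%. Reads from near-identical copies can be divided between them by the estimate of transcript abundance, so the values of Ftl1 and Gpx4 are uncertain to that extent. With copies summed, the Ftl1 differences were 0.056 for B16PD1 minus B16, -0.047 for R499 minus B16 and -0.10 for R499 minus B16PD1. The Fth1 copies were nearly silent, with Fth-ps2 in 1 cell and Fth-ps3 in 0 of 507 cells.

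Ncoa4, the receptor that delivers ferritin to the lysosome, was at 3.14 and 3.67 in B16, at 4.06 and 3.45 in B16PD1 and at 3.46 and 3.16 in R499. The conditions overlapped, and R499 minus B16 was -0.093 (adjusted p = 0.95 by limma). Mean TPM gave another order. Mean TPM of Ncoa4 stood at 49.3 and 44.9 in B16, at 62.4 and 45.9 in B16PD1 and at 87.6 and 80.3 in R499. Ncoa4 was detected in 54.9% and 70.9% of B16 cells and in 56.8% and 54.7% of R499 cells, and in the cells that had it the median was 54.3 and 37.6 TPM in B16 and 65.3 and 72.8 TPM in R499. On the log2 of the mean TPM plus 1 the difference between R499 and B16 was 0.82, opposite in sign to the value above, so no direction can be given for this gene.

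Tfrc, the transferrin receptor, was at 6.84 and 6.30 in B16, at 6.69 and 6.74 in B16PD1 and at 6.45 and 7.15 in R499. The 2 R499 tumors differed by more than the means of any 2 conditions, and all conditions overlapped. R499 minus B16 was 0.23 (SE 0.34, adjusted p = 0.84 by limma). Slc40a1, the only known exporter of iron from cells, was at 0.42 and 0.19 in B16, at 0.39 and 0.31 in B16PD1 and at 0.53 and 0.38 in R499. Its levels rest on the 40 cells in which it was detected, and the conditions overlapped (R499 minus B16 0.15, 95% interval -0.10 to 0.41, adjusted p = 0.69 by limma). That difference was 0.038 without B16_008, 0.27 without B16_007 and 0.76 on the log2 of the mean TPM plus 1. Macrophages also use ferroportin, so its detection was set beside their markers. Slc40a1 was detected in 36 of 449 cells with none of the 17 markers (8.02%), in 3 of 55 with 1 or 2, and in 1 of 3 with 3 or more, and the part of other cells in its level was not tested.

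Hmox1, the inducible heme oxygenase, showed the largest difference among the 9 genes on this scale. Its level stood at 5.22 and 5.82 in B16, at 5.15 and 5.15 in B16PD1 and at 4.49 and 4.20 in R499. Both R499 tumors lay below the 4 others. R499 minus B16 was -1.18 (SE 0.34, 95% interval -1.90 to -0.45, adjusted p = 0.29 by limma), and R499 minus B16PD1 was -0.80 (SE 0.34, adjusted p = 0.45 by limma). The share of cells with Hmox1 stood at 74.7% and 81.4% in B16, at 75.6% and 77.3% in B16PD1 and at 64.2% and 62.7% in R499. Among cells that had Hmox1, median TPM was 138.7 for R499_015 and 108.7 for R499_016. The tumors of the other conditions ran from 108.4 (B16PD1_002) to 142.0 (B16_008). The R499 tumors were thus set apart by the share of cells with Hmox1 and not by this median. Mean TPM over all cells was 83.5 for R499_016 and 123.2 for R499_015, the latter close to the 124.0 of B16_007. B16PD1 minus B16 was -0.37 (SE 0.34, adjusted p = 0.99 by limma), but -0.071 without B16_008 and -0.68 without B16_007.

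Detection of Hmox1 differed with the number of genes detected in a cell. By tumor the mean of this number was 3758 and 3496 for B16, 3787 and 3745 for B16PD1, and 3332 and 3456 for R499. The R499 means were the lowest, but the medians overlapped, at 3647 and 3388.5 for B16, 3807.5 and 3838.5 for B16PD1, and 3141 and 3682 for R499. Among tertiles of the cells by genes detected, with 169 cells each, Hmox1 was found in 53.3% of the low tertile, 74.6% of the middle tertile and 91.1% of the high tertile. In the low tertile the R499 shares, 48.6% and 33.3%, lay below those of B16 (55.2% and 63.0%) and of B16PD1 (58.3% and 66.7%). They were also lowest in the high tertile, at 85.0% and 86.4%, against 90.6% and 96.0% for B16 and 94.3% and 91.4% for B16PD1. The middle tertile differed. There the R499 shares, 69.2% and 78.3%, overlapped B16 (76.7% and 85.3%) and exceeded B16PD1 (66.7% and 69.0%). Mean log2(TPM + 1) in that tertile was 5.17 and 5.07 for R499, against 4.52 and 4.56 for B16PD1 and 5.24 and 6.08 for B16. With each tertile given the same weight in every tumor, an alternative chosen after seeing the data, R499 minus B16 was -0.95 and R499 minus B16PD1 was -0.52. With each tumor's mean number of detected genes entered as a covariate these were -1.71 and -1.65. The slope of this covariate rests on the tumors within a condition. In B16 and in R499 the tumor with the higher mean number had the lower Hmox1 (5.22 against 5.82, and 4.20 against 4.49). Between cells, detection of Hmox1 rose with genes detected, so the covariate values do not correct for that rise. On the log2 of the mean TPM plus 1 the 2 differences of R499, from B16 and from B16PD1, were -0.57 and -0.64. The direction was the same under all alternatives and the adjusted p stayed above 0.05 in each. The summed macrophage markers were also lowest in the R499 tumors, and without the 3 cells that had 3 or more of these markers R499 minus B16 was -1.17 for Hmox1 and -0.42 for Fth1. Fth1 was detected in every cell, and with the tertiles weighted the same its R499 minus B16 difference was -0.42.

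**Figure D4:**
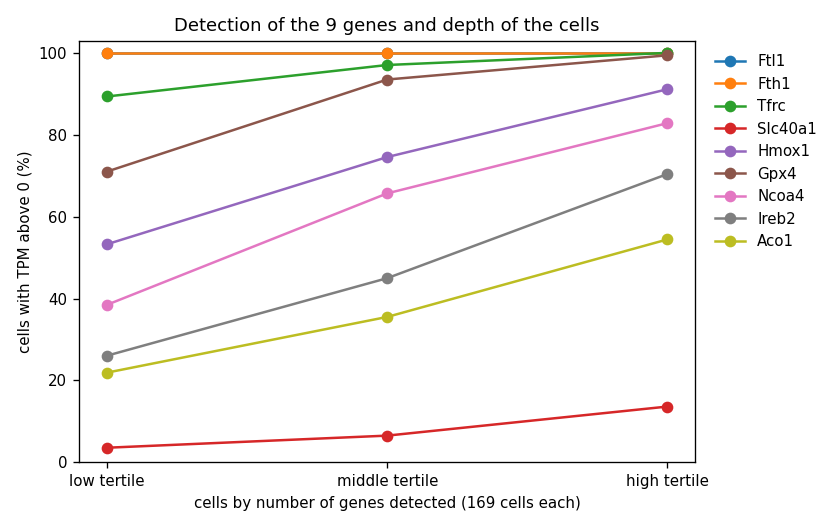
Share of cells with TPM above 0 for the 9 genes in tertiles of the 507 retained cells by number of genes detected (169 cells each, low to high). The share was 100% in every tertile for Ftl1 and Fth1, and from the low to the high tertile it was 53.3% and 91.1% for Hmox1 and 3.55% and 13.6% for Slc40a1.

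Gpx4, the glutathione peroxidase that reduces lipid peroxides, was at 7.69 and 7.35 in B16, at 8.21 and 7.93 in B16PD1 and at 7.62 and 8.27 in R499. Both B16PD1 tumors lay above both B16 tumors, and the R499 tumors spread over the range of the others. B16PD1 minus B16 was 0.55 (SE 0.31, 95% interval -0.098 to 1.20, adjusted p = 0.99 by limma). With Gpx4-ps2 summed in, it was 0.33, with genes detected as a covariate 0.26 and on the log2 of the mean TPM plus 1 0.31. R499 minus B16 was 0.42, with Gpx4-ps2 summed in 0.14, and without R499_016 0.10. Detection of Gpx4 followed depth as well, from 71.0% of the low tertile to 99.4% of the high tertile.

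The sensors were the most sparsely detected after Slc40a1. Ireb2, the sensor that is degraded when iron is plentiful, was at 2.16 and 2.19 in B16, at 1.42 and 2.16 in B16PD1 and at 1.94 and 2.05 in R499. Tumor B16PD1_000 was the lowest, and the other 5 lay within 1.94 to 2.19. Aco1, the sensor that also serves as cytosolic aconitase, was at 1.89 and 1.70 in B16, at 1.53 and 1.65 in B16PD1 and at 1.24 and 1.52 in R499. Both R499 tumors lay below both B16 tumors and both B16PD1 tumors. R499 minus B16 was -0.41 (SE 0.28, adjusted p = 0.63 by limma) and R499 minus B16PD1 was -0.21 (adjusted p = 0.84 by limma), but on the log2 of the mean TPM plus 1 these were 0.29 and 0.60. Without R499_015 the difference from B16PD1 was -0.067, and without R499_016 it was -0.35. Aco1 was detected in 44.0% and 37.2% of B16 cells and in 29.6% and 33.3% of R499 cells.

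Across cells of the same tumor the 9 genes varied mostly apart from each other. Pearson's r of log2(TPM + 1) was computed within each tumor after regression on the number of genes detected, and is given as the median over the 6 tumors, with 507 cells in all. The cells of a tumor share a library preparation, and TPM is a share of 1 total, so r is a description. Of 36 pairs, 29 had a median under 0.1 in size, and the medians ran from -0.17 to 0.23. The ferritin chains were the most alike pair, with a median r of 0.23 and a range over tumors of 0.047 to 0.51. Ftl1 and Tfrc were the most opposed, at -0.17 (from -0.45 to -0.0045), followed by Ftl1 and Ireb2 at -0.15. These 3 pairs kept 1 sign in all 6 tumors, as did Fth1 with Slc40a1 (0.17) and with Ncoa4 (0.052). Slc40a1 was detected in only 4 to 9 cells of a tumor, so each r with it rests on few cells. With Tfrc, the median was -0.11 for Fth1, positive in 1 of 6 tumors, and -0.036 for Slc40a1, positive in 2 of 6.

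**Figure D5:**
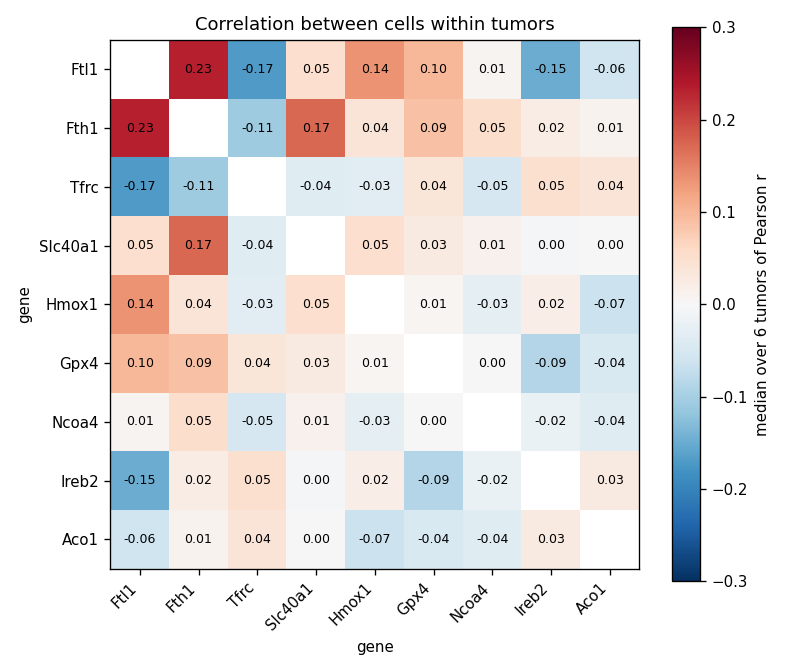
Median over 6 tumors of Pearson's r between cells for each pair of the 9 genes, after regression on the number of genes detected (red positive, blue negative, 507 cells). Ftl1 with Fth1 is the highest at 0.23 and Ftl1 with Tfrc the lowest at -0.17, and most pairs lie near 0.

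The genes most like each of the 9 were sought among 6168 genes detected in at least 20% of cells, by the mean of the same r over 6 tumors. For Ftl1 the leading genes included Gstp1 (0.33), a glutathione transferase, and Fth1 (0.27). Ftl1 ranked 1 for Fth1, followed by Prdx1 (0.19), a peroxiredoxin, and Azgp1 (0.19). For Hmox1 the leading genes were Ddit3 (0.27), a transcription factor of the stress response, Sertad1 (0.22) and Cyb5r1 (0.22). For Tfrc they were Lin7c (0.29), Hnrnpa2b1 (0.27) and Canx (0.24), and for Gpx4 they were Cope (0.25), Ndufv3 (0.24), a subunit of mitochondrial complex I, and Naxe (0.21). Over tumors r ranged from -0.027 to 0.55 for Tfrc with Canx and from 0.055 to 0.42 for Hmox1 with Ddit3. For Ncoa4, Ireb2 and Aco1, each detected in under 63% of cells, the highest values were 0.20 (Dcp1b), 0.18 (Fbxw11) and 0.22 (Rapgef4), followed by Ubb and Tmx3, by Scd2 and Pcmtd2, and by Ide and Scd1.

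The wider pathways were described with 4 lists of 104 other genes, of which 83 were tested. None passed the adjusted threshold by limma in any comparison. With an unadjusted p under 0.05 there were 5 of 83 between B16PD1 and B16 (3 higher and 2 lower in B16PD1), 12 between R499 and B16 (2 higher and 10 lower in R499) and 13 between R499 and B16PD1 (1 higher and 12 lower in R499). Over all 11264 genes at that p, 340 were higher and 188 lower in B16PD1 than in B16, 273 higher and 915 lower in R499 than in B16, and 176 higher and 973 lower in R499 than in B16PD1. The median difference of the 83 genes was 0.052, -0.099 and -0.20 in the 3 comparisons, beside 0.012, -0.073 and -0.089 over all genes.

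Of 27 genes of iron uptake, export and storage, 15 were tested, and the most abundant were Pcbp2 (303 TPM) and Pcbp1 (88.4 TPM), chaperones that deliver iron to ferritin, and Slc11a2 (63.8 TPM), a transporter of ferrous iron. Slc11a2 was at 4.43 and 4.60 in B16, at 4.12 and 3.21 in B16PD1 and at 2.91 and 3.45 in R499 (R499 minus B16 -1.33, SE 0.37, adjusted p = 0.24 by limma). Of 31 genes of heme and iron-sulfur clusters, 29 were tested, led by Pgrmc1 (124 TPM), Cisd1 (108 TPM) and Slc48a1 (101 TPM), a heme transporter. Slc48a1 was at 4.75 and 5.49 in B16 and at 3.71 and 4.38 in R499, with a difference of -1.08 (adjusted p = 0.36 by limma). All 28 genes of glutathione and ferroptosis defense were tested, led by the peroxiredoxins Prdx1 (1608 TPM) and Prdx6 (463 TPM) and by Slc3a2 (439 TPM), the heavy chain of the cystine importer. Of these 28, 7 were lower and 0 higher in R499 than in B16 at an unadjusted p under 0.05, with a median difference of -0.21. Over all 11264 genes 915 were lower and 273 higher, with a median of -0.073. Not every gene of this list acts in defense, and Chac1, which does not, was 1 of the 7 (difference -0.76). Prdx1 differed by 0.091 (adjusted p = 0.92 by limma), Prdx6 by -0.77 (adjusted p = 0.38) and Slc3a2 by -0.76 (adjusted p = 0.40). Of 18 ferroptosis drivers, 11 were tested, led by Pebp1 (468 TPM), Vdac3 (380 TPM) and Vdac2 (330.4 TPM). Among them 1 gene, higher in R499 than in B16, had an unadjusted p under 0.05, with a list median of -0.099. In the same comparison 1 of the 15 uptake, export and storage genes did, lower in R499 (list median -0.069). Of the 29 heme and iron-sulfur genes 3 did, 1 higher and 2 lower in R499 (list median -0.12).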

How the data were processed

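Single-cell RNA sequencing of 6 tumors in 3 conditions was analysed. The authors aligned reads with STAR in 2-pass mode and estimated TPM with RSEM, and deposited TPM per gene and cell without a filter. The submitters' processing notes name mm10, and versions and annotation are not given in the sources used here. Read depth is unknown. Cells with more than 1000 genes detected and less than 10% mitochondrial TPM were retained (507 of 602), and a gene was tested if over 5 of them had it above 0 TPM. Doublets were not called. Columns name the condition and a number that the labels do not hold. This number was assumed to stand for an animal, so each column start was taken as 1 tumor.

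Mean log2(TPM + 1) per tumor was fitted on all 6 tumors with limma 3.58.1 (R 4.3.3, eBayes with a trend, two-sided). p-values measure only spread between tumors of a condition, with 2 tumors in each. For each gene this spread was estimated from all 6 tumors and drawn by eBayes toward a trend over all genes. Wilson intervals cover counting error only. UTRs were taken from GENCODE release M21 (GRCm38). The 9 genes and all lists were chosen with earlier results of these data known. Genes named besides the 9 are the 3 most abundant per list, the 3 most alike per gene, and the most frequent marker of each cell type. A gene that this rule names is not reported here. Alternatives were other pseudocounts (0.1 and 10), the tumor mean TPM, gene filters (none, 10% of cells), cell filters (none, 2000 genes, 5% mitochondrial TPM, macrophage or melanocyte markers), subtraction of each cell's mean, genes detected as a covariate, no trend and each tumor left out. Other steps ran in Python 3.11.15 (pandas 2.3.3, numpy 2.4.6, matplotlib 3.10.9, scipy 1.17.1).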

Additional observations from a re-analysis of the deposited data

How the results depend on the processing

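The 27 differences of the 9 genes were recomputed under up to 21 alternatives, 2 of them chosen after seeing the data. Some alternatives cannot move a difference, so their values repeat the main one and say nothing about its direction. These were the gene filters, no trend, the melanocyte marker filter, which kept every retained cell, and leaving out a tumor of the condition not compared. Of 564 values none passed the adjusted threshold and 33 had the opposite sign, and 12 differences never changed sign, among them Fth1 and Hmox1 in both comparisons with R499. On the log2 of the mean TPM plus 1, B16PD1 minus B16 became -0.047 for Tfrc and 0.072 for Hmox1, R499 minus B16 became 0.82 for Ncoa4 and 0.29 for Aco1, and R499 minus B16PD1 became 0.64 for Ncoa4 and 0.60 for Aco1. With genes detected as a covariate, B16PD1 minus B16 became -0.22 for Tfrc and -0.021 for Slc40a1, and R499 minus B16PD1 became 0.66 for Gpx4 and 0.13 for Aco1. With each cell's mean subtracted, Ftl1 became 0.066 (R499 minus B16) and 0.032 (R499 minus B16PD1), Ncoa4 0.0095 (R499 minus B16) and Gpx4 0.0082 (R499 minus B16PD1). With each tertile of genes detected weighted the same, Ncoa4 became 0.022 (R499 minus B16) and Gpx4 0.21 (R499 minus B16PD1). Ncoa4 was 0.11 with a pseudocount of 10 (R499 minus B16), Slc40a1 was -0.12 with less than 5% mitochondrial TPM (B16PD1 minus B16), and Tfrc was -0.057 with more than 2000 genes (R499 minus B16PD1). The cause was not tested. With each tumor left out in turn, the differences that changed sign ranged, for B16PD1 minus B16, from -0.016 to 0.15 (Ftl1), -0.025 to 0.24 (Fth1), -0.13 to 0.42 (Tfrc) and -0.063 to 0.17 (Slc40a1). For R499 minus B16 they ranged from -0.12 to 0.048 (Ftl1), -0.12 to 0.58 (Tfrc) and -0.36 to 0.18 (Ncoa4), and for R499 minus B16PD1 from -0.26 to 0.44 (Tfrc), -0.45 to 0.19 (Gpx4) and -0.16 to 0.58 (Ireb2). Among those that kept their sign, B16PD1 minus B16 ranged from -0.76 to -0.019 for Ireb2, 0.044 to 0.66 for Ncoa4 and 0.38 to 0.72 for Gpx4, and R499 minus B16PD1 from -0.75 to -0.14 for Ncoa4. The lone tumor of a condition was then assumed to vary like the others. Without a filter on cells the share detected was 99.8% for Ftl1 and 99.2% for Fth1, and with more than 2000 genes it was 91.7% for Gpx4. Over all genes, the number past the threshold ranged over the alternatives from 0 to 13 (B16PD1 minus B16), 0 to 28 (R499 minus B16) and 0 to 22 (R499 minus B16PD1). No paired analysis was possible because the columns do not carry the labels' replicate numbers. TPM keeps no read counts, so the depth behind these shares is unknown.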

Other observations

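Further genes of the wider lists, chosen after their values were seen, are given here with the values of each tumor. They come from the 28 genes of glutathione and ferroptosis defense, of which 16 were lower and 12 higher in R499 than in B16 at any p. Aifm2 was among the 12 (R499 minus B16 0.40, SE 0.21, adjusted p = 0.52 by limma). Over all 11264 genes 7225 were lower and 4038 higher. Coq10b, a coenzyme Q binding protein, was at 2.87 and 2.53 in B16, at 2.61 and 2.92 in B16PD1 and at 1.75 and 1.78 in R499 (mean log2(TPM + 1); R499 minus B16 -0.93, SE 0.31, adjusted p = 0.35 by limma). Both R499 tumors lay below the 4 others. Eefsec, the elongation factor that inserts selenocysteine, which Gpx4 contains, was at 5.75 and 5.34 in B16, at 5.36 and 4.51 in B16PD1 and at 4.66 and 4.27 in R499, with a difference of -1.08 between R499 and B16 (SE 0.37, adjusted p = 0.36 by limma). Slc7a11, the light chain of the cystine importer, was at 0.93 and 0.70 in B16, at 0.99 and 0.90 in B16PD1 and at 0.43 and 0.35 in R499 (R499 minus B16 -0.42, SE 0.18, adjusted p = 0.42 by limma), and was detected in 20.3% of cells. Nqo1, a quinone reductase, was at 0.34 and 0.27 in B16 and 0.89 and 0.64 in B16PD1 and 0.19 and 0.53 in R499, with a B16PD1 minus B16 difference of 0.46 (SE 0.15, adjusted p = 0.99 by limma), but was detected in 9.86% of cells.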
